A study of Mus musculus with 6 samples.

Results

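The genes described here are 32 genes of cholesterol synthesis, of its control, of cholesterol uptake and transfer within cells, and of cholesterol efflux. They were chosen by name: a probe set belongs to them where the platform annotation gives it 1 of these 32 gene symbols. Of the 32, 29 had a probe set and Acat2, Soat1 and Nr1h2 are not analysed here. All 29 lay above the filter on dim probe sets, among 12626 named genes that did so of 18193 named genes in all. They comprise 17 synthesis enzymes, 5 regulators, 3 genes of uptake and transfer and 4 genes of efflux, with 62 probe sets of which 54 passed the filter.

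Expression was measured on Affymetrix arrays in the first lumbar segment (L1) of the spinal cord of male SCID mice, a strain with severe combined immunodeficiency that lacks mature T and B lymphocytes and accepts human cells. In the N-inv group, a model of neural invasion, Capan-1, a line of human pancreatic cancer cells, was put into the left sciatic nerve by injection. The controls were a subcutaneous model (SC), for which the labels used here do not restate the injected cells, and a vehicle model (PBS). Each of the 3 groups had 2 arrays, the mice were 9 weeks old when obtained and 15 weeks old at sampling, and the cord was taken at 6 weeks. Whether the 2 arrays of a group stand for 2 mice is not said in the labels, so p-values measure only how far these samples spread, and that spread may be technical. Intensities are read within a gene across arrays, not between genes, because probe sets differ in brightness.

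Cholesterol is built from acetyl-CoA through mevalonate and farnesyl diphosphate to squalene, and squalene is then cyclised to lanosterol and trimmed to cholesterol. When sterols are scarce, SCAP carries the SREBP transcription factors to the Golgi, where they are cut and released to switch on genes of synthesis, and INSIG proteins hold this complex back when sterols are plentiful. The adult central nervous system makes nearly all of its own cholesterol, most of it resides in myelin, and astrocytes and microglia pass cholesterol on through ABCA1, ABCG1 and apolipoprotein E under the control of LXR receptors. In a piece of whole cord, fewer cells of a type and less RNA per cell cannot be told apart.

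The 2 SC arrays stood apart from the other 4. Their correlation with each other over the log2 values was 0.963, and each correlated less well with the rest (medians of 0.970 and 0.969) than the N-inv and PBS arrays did (0.980 for each). For Actb, the signal of the 3' control probes over the 5' ones, which is higher in degraded RNA, was 3.32 and 3.42 in N-inv, 3.81 and 4.70 in SC, and 3.05 and 3.57 in PBS. For Gapdh this ratio was 3.12 and 3.38 in N-inv, 3.52 and 3.38 in SC, and 2.82 and 3.02 in PBS, so SC replicate 2 did not stand apart there from N-inv replicate 2. Xist, an RNA of female cells, measured 12779 in SC replicate 2 and at most 224 in the other 5 arrays, although the labels give all mice as male. Group medians, and differences of genes given array by array, that turned sign or moved by over 1.5 times when 1 SC array was left out are therefore also given without each SC array. Lumbar identity was read from Hoxa10, Hoxc10 and Hoxd10, and 3 of 3 were above the filter. Hoxd10 measured 2287 and 3070.5 in N-inv, 4672 and 4342 in SC and 2403 and 2935 in PBS, so both SC arrays were the highest, with a log2 difference of 0.76 ± 0.21 (SE) in SC against PBS, while Hoxa10 and Hoxc10 overlapped between all groups. In limma 0 of 27022 probe sets passed an adjusted p of 0.05 in any of the 3 comparisons, or 0% in each, and the differences below are values without a claim of change. The smallest adjusted p was 0.339 for N-inv against PBS, 0.324 for N-inv against SC and 0.514 for SC against PBS, and 1089, 2406 and 2129 probe sets had an unadjusted p under 0.05.

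The synthesis enzymes lay lower in the SC arrays than in either of the other groups, and N-inv and PBS differed little in them. Of the 17 enzymes, 17 had higher N-inv than SC levels, as did 60.5% of all named genes tested (39.5% lay lower), with a median log2 difference of 0.26 against 0.06 over all genes. In 14 of the 17 both N-inv arrays lay above both SC arrays, a pattern seen in 25.4% of all genes, with the opposite pattern in 0 enzymes and 11.3% of all genes. In SC against PBS 17 of 17 lay lower, as did 53.2% of all genes (46.8% lay higher), although Lss, at -0.00, lay higher after quantile normalization (0.05) and on the intensities as deposited (0.02). The median was -0.25 against -0.02 over all genes. In 13 enzymes both SC arrays lay below both PBS arrays, a pattern seen in 19.8% of all genes, and in 0 enzymes both lay above, as in 13.7% of all genes. N-inv against PBS gave a median of 0.02 against 0.04 over all genes, with 9 enzymes higher and 8 lower, where 7571 and 5055 of the 12626 genes were (60% and 40%), and with 8 higher and 9 lower after quantile normalization or as deposited. In that comparison the groups did not overlap in 3 enzymes that were higher and 1 that was lower, while the same patterns were seen in 25.2% and 12.6% of all genes. The comparisons N-inv against SC and SC against PBS share the SC arrays, so a low level in SC enters both.

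Both SC arrays lay below all 4 other arrays in 12 of the 17 enzymes, or 70.6%, and in 13.7% of all named genes tested. SC replicate 1 alone lay below the other 4 in 15 enzymes and SC replicate 2 in 14, while over all genes the shares were 46.1% and 23.3%. Each of the SC arrays thus lay low in the enzymes more often than in genes at large. After the arrays were brought to 1 median, replicate 1 lay low in genes at large as well. That scaling lowers replicate 1, whose deposited median was the highest at 279.2, and raises replicate 2, the lowest at 241.7. On the intensities as deposited the all-gene medians were 0.01 in N-inv against SC and 0.00 in SC against PBS. Without SC replicate 1 the enzyme median was 0.22 for N-inv against SC, with all genes at -0.04, and -0.19 for SC against PBS, with all genes at 0.08. Without SC replicate 2 it was 0.33 with all genes at 0.15, and -0.32 with all genes at -0.11. Relative to all genes, the enzymes in SC against PBS were at -0.23 with both arrays, -0.27 without replicate 1 and -0.21 without replicate 2. On the intensities as deposited, 14 enzymes again had both N-inv arrays above both SC arrays, against 21.0% of all genes, and 10 had both SC arrays below both PBS arrays, against 19.0% of all genes.

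**Figure D1:**
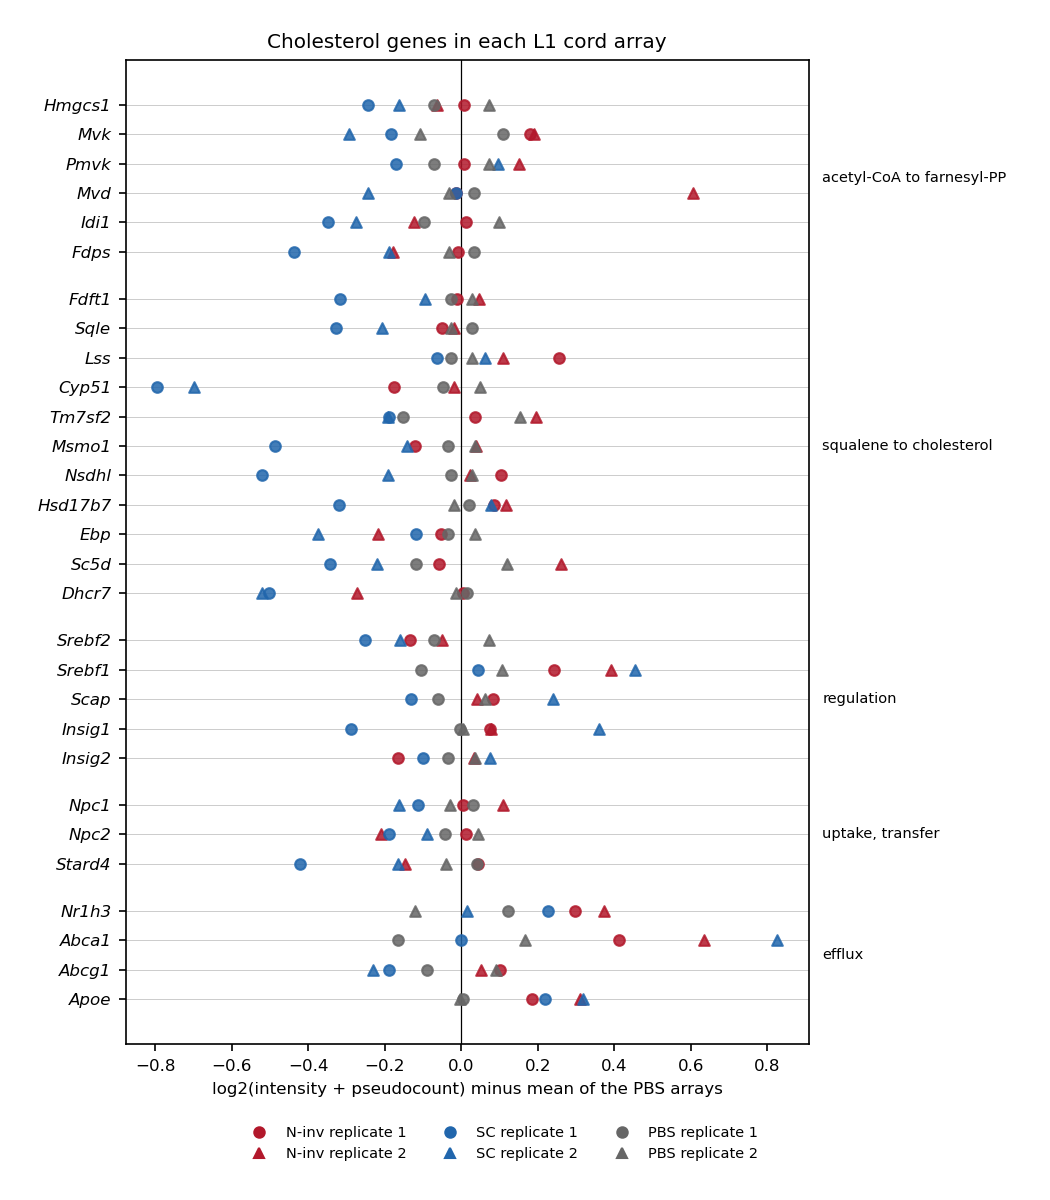
Each point is 1 array: log2(intensity + pseudocount) of the gene's brightest probe set minus the mean of the 2 PBS arrays, on the horizontal axis, for 29 genes grouped by role. SC points lie left of the other 4 in 12 of the 17 synthesis enzymes, 2 of 3 uptake and transfer genes, 1 of 5 regulators and 1 of 4 efflux genes; in Insig1 and Abca1 the SC arrays lie far apart.

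The promoters of the synthesis enzymes are shown because the SREBP proteins act at them together with NF-Y, a factor that binds CCAAT. Windows of 300 bases, 250 before to 50 after the start of transcription, were taken from RefSeq (GRCm38.p6), and 23 of the 29 genes had one. CCAAT, read on both strands (CCAAT or ATTGG), was found in 14 of 14 synthesis enzymes, in 5 of the 9 other genes and in 42.7% of the 10189 genes tested that had a window. The sterol regulatory element, written TCACNCCAC and read on both strands, was found in 1 of 14 enzymes, Hmgcs1, in 0 of the 9 others and in 1.40% of all. Only this string was searched, so a window without it is not shown to lack a sterol regulatory element. The E-box CACGTG, which the same protein family can bind, was found in 3 of 14 enzymes, 3 of the 9 others and 11.6% of all. An exact direct repeat of AGGTCA with 4 bases between, a strict form of the LXR element, was found in 0 of the 14 and 0 of the 9. It was also found in 0 of all windows on either strand. This string thus cannot tell the sets apart and does not show whether these genes have LXR sites. No matches of different motifs overlapped, and a gene with several start sites counted when any of its windows held the motif. A match is a string of letters and not a shown binding site. The stretches around the matches follow for the 3 enzymes with the lowest unadjusted p in N-inv against SC or SC against PBS and for Hmgcs1, 5′ to 3′ on the gene's strand, with CCAAT or ATTGG in capitals and, in Hmgcs1, also TCACCCCAC. Cyp51 is at chr5:4104702-4104746 on the minus strand, Dhcr7 at chr7:143830109-143830189 on the plus strand, Mvk at chr5:114444076-114444268 on the plus strand and Hmgcs1 at chr13:119690101-119690330 on the plus strand.
Cyp51: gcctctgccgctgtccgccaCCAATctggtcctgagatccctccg
Dhcr7: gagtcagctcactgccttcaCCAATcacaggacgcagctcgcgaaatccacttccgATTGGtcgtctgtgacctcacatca
Mvk: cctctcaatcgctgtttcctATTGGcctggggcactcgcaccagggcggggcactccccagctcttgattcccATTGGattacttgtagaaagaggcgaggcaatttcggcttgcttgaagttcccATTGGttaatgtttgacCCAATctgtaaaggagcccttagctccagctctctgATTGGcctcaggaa
Hmgcs1: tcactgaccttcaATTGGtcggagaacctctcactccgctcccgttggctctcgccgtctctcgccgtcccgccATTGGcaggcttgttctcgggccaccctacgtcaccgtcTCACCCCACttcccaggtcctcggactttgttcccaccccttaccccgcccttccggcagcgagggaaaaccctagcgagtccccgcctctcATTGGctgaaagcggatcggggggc
In Cyp51 the single CCAAT begins 29 bases before the start. In Dhcr7 the matches begin 85 and 49 bases before the start, in a window that is 1 of 3 for this gene. Mvk holds 5 matches between 173 and 14 bases before its start. In Hmgcs1 the sterol element begins 137 bases before the start.

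The 6 enzymes that lead from acetyl-CoA to farnesyl diphosphate had medians of 0.02 in N-inv against PBS, 0.24 in N-inv against SC and -0.22 in SC against PBS. Hmgcs1, the cytosolic HMG-CoA synthase at the entry to the pathway, measured 39848 and 37886 in N-inv, 33451 and 35389 in SC and 37734 and 41626 in PBS. Both SC arrays were the lowest, and the N-inv and PBS arrays overlapped, with a log2 difference of 0.18 ± 0.16 (SE) in N-inv against SC and -0.20 ± 0.16 in SC against PBS (adjusted p = 0.794 and 0.811 in limma). After quantile normalization the difference in SC against PBS was -0.36. Of its 5 probe sets above the filter, 4 were lower in SC than in PBS, and the dimmest was higher, by 0.16. Mvk, mevalonate kinase, measured 1024 and 1029.7 in N-inv, 790.2 and 729 in SC and 972 and 834 in PBS. Its N-inv arrays were the highest and its SC arrays the lowest with no overlap of any groups, and the log2 difference was 0.42 ± 0.16 (SE) in N-inv against SC (adjusted p = 0.529 in limma) and 0.18 ± 0.16 in N-inv against PBS.

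Mvd, which decarboxylates mevalonate diphosphate, measured 605 and 943 in N-inv, 606 and 512 in SC and 626 and 598 in PBS. N-inv replicate 2 was far above the other 5 arrays, which lay close together. The log2 difference of N-inv against SC, 0.42 ± 0.23 (SE), was 0.11 without that array and 0.73 without N-inv replicate 1. A second probe set of Mvd measured 588 and 602 in N-inv, 447 and 407 in SC and 597 and 491 in PBS. N-inv replicate 2 did not stand apart there, both N-inv arrays lay above both SC arrays, and the log2 difference was 0.46. Idi1, the isomerase of isopentenyl diphosphate, measured 6874 and 6262 in N-inv, 5349 and 5634 in SC and 6375 and 7298 in PBS, so both SC arrays were the lowest. The log2 difference was 0.26 ± 0.16 (SE) in N-inv against SC and -0.31 ± 0.16 in SC against PBS. Fdps, which makes farnesyl diphosphate, measured 1177 and 1043 in N-inv, 868 and 1035 in SC and 1212 and 1156 in PBS. SC replicate 2 lay just under the lower N-inv array, and the log2 difference in SC against PBS was -0.31 ± 0.17 (SE), -0.19 without SC replicate 1 and -0.44 without SC replicate 2. Pmvk, phosphomevalonate kinase, overlapped between all groups, with differences between -0.04 and 0.12, and in N-inv against SC at -0.02 without SC replicate 1 and 0.25 without SC replicate 2.

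The 11 enzymes from squalene synthesis to cholesterol had medians of 0.02 in N-inv against PBS, 0.27 in N-inv against SC and -0.27 in SC against PBS. Cyp51, the lanosterol demethylase, had the lowest p of the 29 genes in both comparisons with SC and measured 3685 and 4108 in N-inv, 2388 and 2555 in SC and 4027 and 4305 in PBS. Both SC arrays were far below the other 4, and the N-inv and PBS arrays overlapped. The log2 difference was 0.65 ± 0.16 (SE) in N-inv against SC and -0.75 ± 0.16 in SC against PBS (adjusted p = 0.449 and 0.518 in limma). It lay between 0.57 and 0.73 in N-inv against SC, and between -0.80 and -0.70 in SC against PBS, when each array was left out in turn. A second probe set of Cyp51 ran the same way, at 896 and 1116 in N-inv, 688 and 874 in SC and 1098 and 1069.6 in PBS. The dimmest of the 3 ran the other way, at 117 and 198 in N-inv, 252 and 179.5 in SC and 148 and 101 in PBS, which gave a log2 difference of 0.69 in SC against PBS.

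Dhcr7, the reductase of the last step, measured 2722 and 2243 in N-inv, 1909 and 1882 in SC and 2740.1 and 2686 in PBS. Its SC arrays agreed closely and were the lowest, with a log2 difference of -0.51 ± 0.17 (SE) in SC against PBS (adjusted p = 0.582 in limma) and 0.38 ± 0.17 in N-inv against SC. Nsdhl, a sterol dehydrogenase that works on lanosterol derivatives, measured 4566 and 4314 in N-inv, 2956 and 3721 in SC and 4167 and 4336 in PBS. Both SC arrays were again the lowest, replicate 1 by far, with a log2 difference in N-inv against SC of 0.42 ± 0.18 (SE), 0.25 without SC replicate 1 and 0.58 without SC replicate 2. Sc5d, the desaturase of the ring, measured 3073 and 3844 in N-inv, 2519.9 and 2743 in SC and 2947 and 3479.6 in PBS, which gave a log2 difference of 0.38 ± 0.19 (SE) in N-inv against SC. Its 3 probe sets were all lower in SC than in PBS, and in N-inv against PBS they ran from -0.36 to 0.10.

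Msmo1, a methylsterol oxidase, measured 6213 and 6937 in N-inv, 4814 and 6125 in SC and 6593 and 6929 in PBS. SC replicate 2 lay just below the lower N-inv array, with a log2 difference in SC against PBS of -0.31 ± 0.18 (SE), -0.14 without SC replicate 1 and -0.49 without SC replicate 2. A dim second probe set was higher in SC, by 0.27. Ebp, a sterol isomerase, measured 1923 and 1713 in N-inv, 1836 and 1534 in SC and 1946 and 2046 in PBS. Its PBS arrays were the highest, N-inv and SC overlapped, and the log2 difference was -0.14 ± 0.17 (SE) in N-inv against PBS and -0.25 ± 0.17 in SC against PBS, the second being -0.37 without SC replicate 1 and -0.12 without SC replicate 2. Lss, the cyclase that forms lanosterol, measured 1296 and 1169 in N-inv, 1035 and 1131 in SC and 1061 and 1103 in PBS. Its N-inv arrays were the highest and its SC and PBS arrays overlapped, with a log2 difference in N-inv against SC of 0.18 ± 0.16 (SE), 0.12 without SC replicate 1 and 0.24 without SC replicate 2. The enzymes not given array by array were Fdft1, Sqle, Tm7sf2 and Hsd17b7. Their log2 differences lay between 0.22 and 0.31 in N-inv against SC and between -0.27 and -0.12 in SC against PBS. Without SC replicate 1, Hsd17b7 lay at 0.02 in N-inv against SC and at 0.08 in SC against PBS. The probe sets used for Fdft1, Hsd17b7 and Mvd carry suffixes that Affymetrix gives to sets with probes shared by other transcripts.

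**Figure D2:**
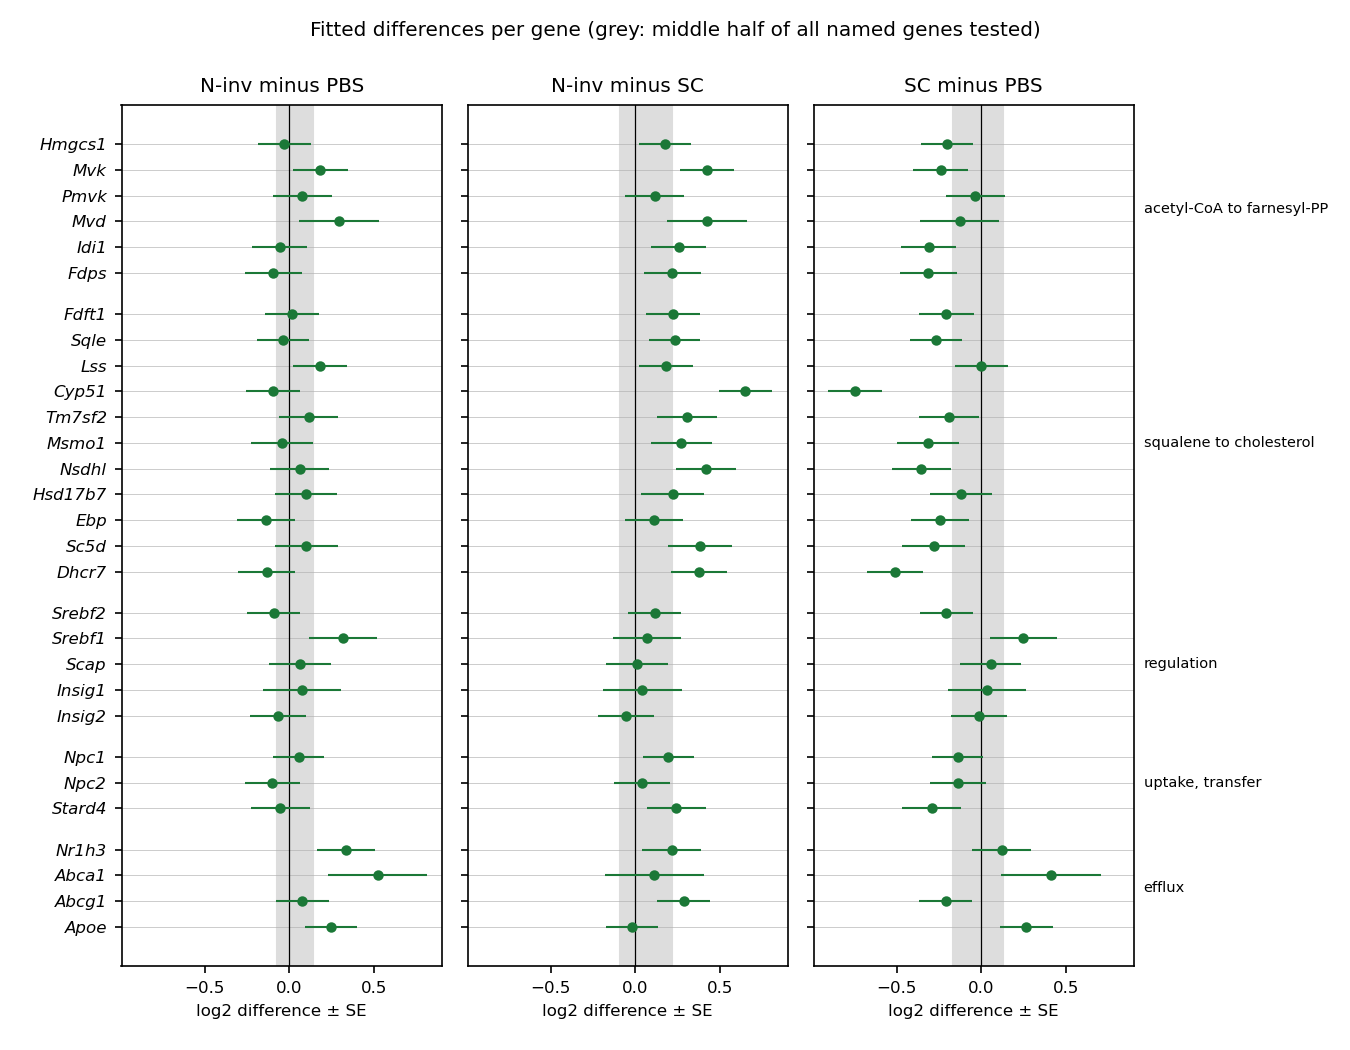
Log2 differences of 29 genes in the 3 comparisons, with bars for the SE of the limma fit; the grey band is the middle 50% of all named genes tested. In N-inv minus SC the 17 enzymes lie right of 0 and in SC minus PBS they lie at or left of 0, with Cyp51 farthest out at 0.65 and -0.75, while in N-inv minus PBS they scatter around 0.

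Over the 33 probe sets of the 17 enzymes above the filter, 32 had higher N-inv than SC levels and 30 were lower in SC than in PBS. The exceptions were dim probe sets: that of Cyp51 in both comparisons, and those of Hmgcs1 and Msmo1 in SC against PBS. Over all 29 genes, an unadjusted p under 0.05 was found for 2 that were higher in N-inv than in SC (Cyp51 and Mvk) and 0 that were lower, against 6.10% and 2.06% of all genes tested. In SC against PBS it was found for 2 that were lower (Cyp51 and Dhcr7) and 0 that were higher, against 4.49% and 2.24%. In N-inv against PBS it was found for 0 of the 29, against 2.19% of all genes higher and 1.14% lower.

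**Figure D3:**
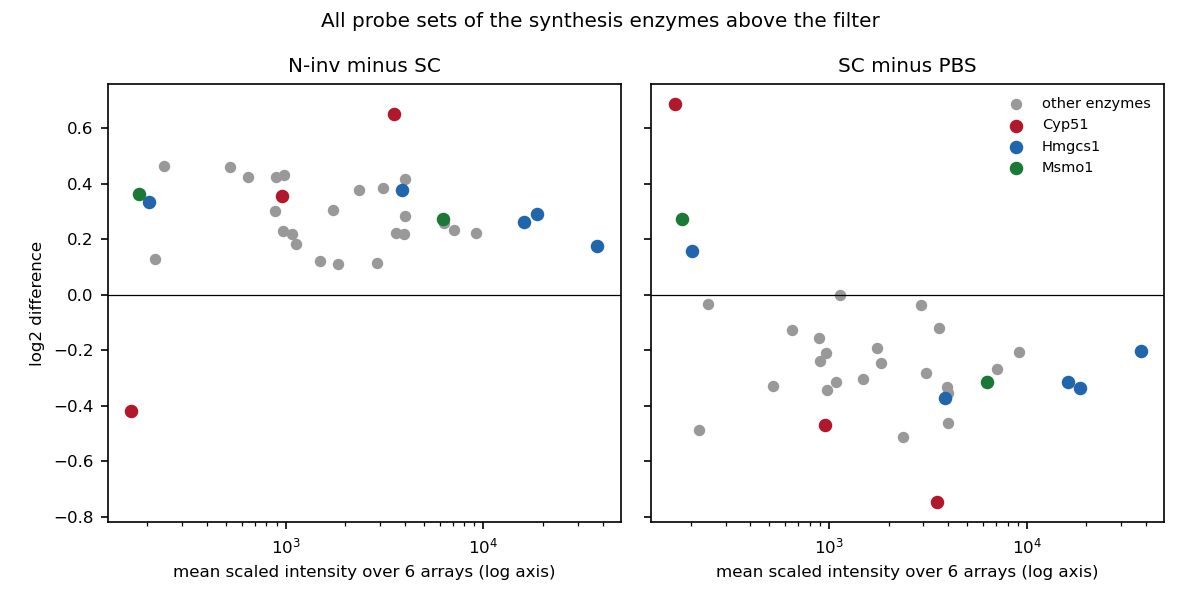
Log2 difference of each of the 33 synthesis enzyme probe sets above the filter against its mean scaled intensity (log axis), with Cyp51, Hmgcs1 and Msmo1 coloured. Points against the common direction are among the dimmest, such as the Cyp51 probe set at -0.42 in N-inv minus SC and 0.69 in SC minus PBS.

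The 5 regulators had no common direction in SC. Their medians were 0.06 in N-inv against PBS, 0.04 in N-inv against SC and 0.03 in SC against PBS, and both SC arrays were the lowest in 1 of 5, Srebf2. This gene, which encodes the SREBP that chiefly drives cholesterol synthesis, measured 944 and 1003 in N-inv, 868 and 927 in SC and 988 and 1092 in PBS, which gave a log2 difference of -0.21 ± 0.16 (SE) in SC against PBS. Srebf1, whose SREBP chiefly drives fatty acid synthesis, measured 4157 and 4613 in N-inv, 3616 and 4813 in SC and 3259 and 3779 in PBS. Both N-inv arrays lay above both PBS arrays, with a log2 difference of 0.32 ± 0.20 (SE), adjusted p = 1 in limma, and the SC arrays spread over both groups.

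Insig1, which retains SCAP in the endoplasmic reticulum and is itself a target of SREBP, measured 2716 and 2725 in N-inv, 2105 and 3317 in SC and 2571 and 2588 in PBS. The SC arrays lay on either side of the other 4, which were close together. The log2 difference of SC against PBS was 0.03 ± 0.23 (SE) with both arrays, 0.36 without SC replicate 1 and -0.29 without SC replicate 2. Insig2, its relative, measured 4034 and 4632 in N-inv, 4218 and 4769 in SC and 4414 and 4639.9 in PBS, and all groups overlapped. Scap, the escort of the SREBP proteins, measured 4815 and 4681 in N-inv, 4148 and 5374 in SC and 4359 and 4743 in PBS. On values brought to 1 median the SC arrays again straddled the rest, while as deposited SC replicate 1 was not the lowest array. The log2 difference of SC against PBS in Scap was 0.24 without SC replicate 1 and -0.13 without SC replicate 2. Over the 5 regulators the median in SC against PBS was 0.24 without SC replicate 1 and -0.13 without SC replicate 2, and in N-inv against SC it was -0.14 and 0.19.

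The 3 genes of cholesterol uptake and transfer lay slightly lower in SC than in PBS, by a median of -0.14, and in 3 of 3 both SC arrays lay below both PBS arrays, against 19.8% of all genes. Npc1, the membrane protein that releases cholesterol from lysosomes, measured 1703 and 1831 in N-inv, 1566 and 1512 in SC and 1735 and 1661 in PBS, so both SC arrays were the lowest. The log2 difference was 0.20 ± 0.15 (SE) in N-inv against SC and -0.14 ± 0.15 in SC against PBS. Npc2, its soluble partner, measured 14093 and 12058 in N-inv, 12252 and 13118 in SC and 13559 and 14387 in PBS. N-inv replicate 2 was the lowest array there, and the log2 difference in SC against PBS was -0.14 ± 0.16 (SE), -0.09 without SC replicate 1 and -0.19 without SC replicate 2. Stard4, a cytosolic sterol carrier, measured 2353 and 2059.7 in N-inv, 1698 and 2033 in SC and 2347 and 2220.4 in PBS. Its SC arrays were the lowest, with a log2 difference in SC against PBS of -0.29 ± 0.17 (SE), -0.17 without SC replicate 1 and -0.42 without SC replicate 2. Its other 2 probe sets were at 0.02 and 0.41.

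The 4 efflux genes had N-inv levels above those of PBS, by a median of 0.29 against 0.04 over all genes. The direction was the same in 4 of 4, where 60% of all genes were higher. In 3 the groups did not overlap, against 25.2% of all genes. The median was 0.23 after quantile normalization and 0.26 as deposited. In SC against PBS the efflux median was 0.19 against -0.02 over all genes, with 3 of 4 higher, where 46.8% of all genes were. This was 0.17 without SC replicate 1 and 0.11 without SC replicate 2. In N-inv against SC the efflux median was 0.16 against 0.06 over all genes, with 3 of 4 higher, where 60.5% of all genes were. Abca1, the transporter that loads lipid onto apolipoproteins, measured 6172 and 7195 in N-inv, 4622 and 8228 in SC and 4123 and 5199 in PBS. Both N-inv arrays were above both PBS arrays, with a log2 difference of 0.52 ± 0.29 (SE), adjusted p = 1 in limma. The SC arrays of Abca1 were far apart, and the log2 difference of SC against PBS was 0.83 without SC replicate 1 and -0.00 without SC replicate 2. Apoe, the main lipid carrier secreted by glia, measured 42439 and 46301 in N-inv, 43429 and 46528 in SC and 37481 and 37228 in PBS. It was the only efflux gene in which both the N-inv and the SC arrays lay above both PBS arrays, with log2 differences of 0.25 ± 0.15 (SE) and 0.27 ± 0.15; the second was 0.11 after quantile normalization. N-inv and SC overlapped in Apoe, at -0.02 ± 0.15, -0.07 without SC replicate 1 and 0.03 without SC replicate 2.

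Nr1h3, which encodes the oxysterol receptor LXR alpha, was dim and measured 338 and 357 in N-inv, 320.0 and 273 in SC and 296 and 246 in PBS. Its N-inv arrays were the highest, with a log2 difference of 0.34 ± 0.17 (SE) in N-inv against PBS. Abcg1, which exports cholesterol to lipoprotein particles, measured 4371 and 4222 in N-inv, 3569 and 3469 in SC and 3825 and 4338 in PBS. Its SC arrays were the lowest, with a log2 difference of 0.29 ± 0.16 (SE) in N-inv against SC and -0.21 ± 0.16 in SC against PBS. A dimmer probe set of Abcg1 ran the other way, at -0.42 and 0.23. In N-inv against PBS the dimmer one was at -0.19. The brighter one was at 0.08 with overlap, and at -0.01 to 0.17 with each array left out in turn. On the intensities as deposited the 7 genes of uptake, transfer and efflux together had a median of 0.04 in N-inv against PBS, against 0.08 on the common median.

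Levels of cell type markers are given beside these groups. The 14 myelin and oligodendrocyte markers above the filter, of 17 listed, had medians of 0.01 in N-inv against PBS, 0.44 in N-inv against SC and -0.49 in SC against PBS, the last being -0.57 without SC replicate 1 and -0.27 without SC replicate 2. Both SC arrays were the lowest in 10 of the 14, against 13.7% of all genes. In SC against PBS 12 were lower, as were 53.2% of all genes. The 2 higher ones were Mbp, at 0.18 without overlap, and Mobp, at 0.07 with overlap. After quantile normalization 14 of 14 were lower. The markers' summed intensity was 262544 and 263314 in N-inv, 239612 and 233483 in SC, and 248447 and 265229 in PBS. Mbp alone measured 78878 and 81881 in SC. Relative to each gene's mean over 6 arrays, the myelin median was -0.16 in SC replicate 1 and -0.41 in replicate 2. The synthesis enzyme median was -0.23 in replicate 1 and -0.11 in replicate 2, the other array order. Over all genes these medians were -0.12 and 0.07, so on values brought to 1 median replicate 1 lay lower in genes at large. Set against all genes, both lists lay lower in replicate 2 than in replicate 1. Whether the myelin markers, the 3' to 5' ratios, the Hoxd10 level or the Xist signal have a part in the lower enzyme levels of SC was not tested.

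Beside the efflux genes, 12 microglia markers above the filter, of 14 listed, had a median of 0.75 in N-inv against PBS, and 12 of 12 were higher without overlap, against 25.2% of all genes. Their summed intensity was 53102 and 47055 in N-inv, 27957 and 36516 in SC, and 32232 and 32603 in PBS, and of the measured markers Trem2 was below the filter. In SC against PBS, where Apoe was also higher, the microglia median was -0.11, with -0.01 without SC replicate 1 and -0.03 without SC replicate 2. The markers were split there, with 5 higher and 7 lower. Both SC arrays lay above both PBS arrays in 3 (C1qa, C1qb and C1qc), against 13.7% of all genes. They lay below in 3 others (Csf1r, P2ry12 and Laptm5), against 19.8% of all genes. The 9 astrocyte markers had medians of 0.19 in N-inv against PBS, 0.18 in N-inv against SC and -0.05 in SC against PBS, with sums of 246722 and 257419 in N-inv, 196449 and 239012 in SC, and 205673 and 220972 in PBS. Without SC replicate 1 the astrocyte median was 0.03 in N-inv against SC and 0.13 in SC against PBS, and without SC replicate 2 it was 0.32 and -0.24, so the sign in SC against PBS turned on 1 array. The 8 neuron markers had medians of 0.09, 0.02 and 0.07 in the same comparisons, with both comparisons against PBS below 0 after quantile normalization, at -0.01 and -0.03, and N-inv against SC at -0.03 as deposited. Without SC replicate 1 the neuron median was -0.05 in N-inv against SC and 0.18 in SC against PBS, and without SC replicate 2 it was 0.11 and -0.04. On values brought to 1 median, genes at large also lay lower in SC replicate 1 than in replicate 2, at -0.12 and 0.07 relative to each gene's mean. The part of microglia and astrocytes in the efflux gene levels was not tested.

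**Figure D4:**
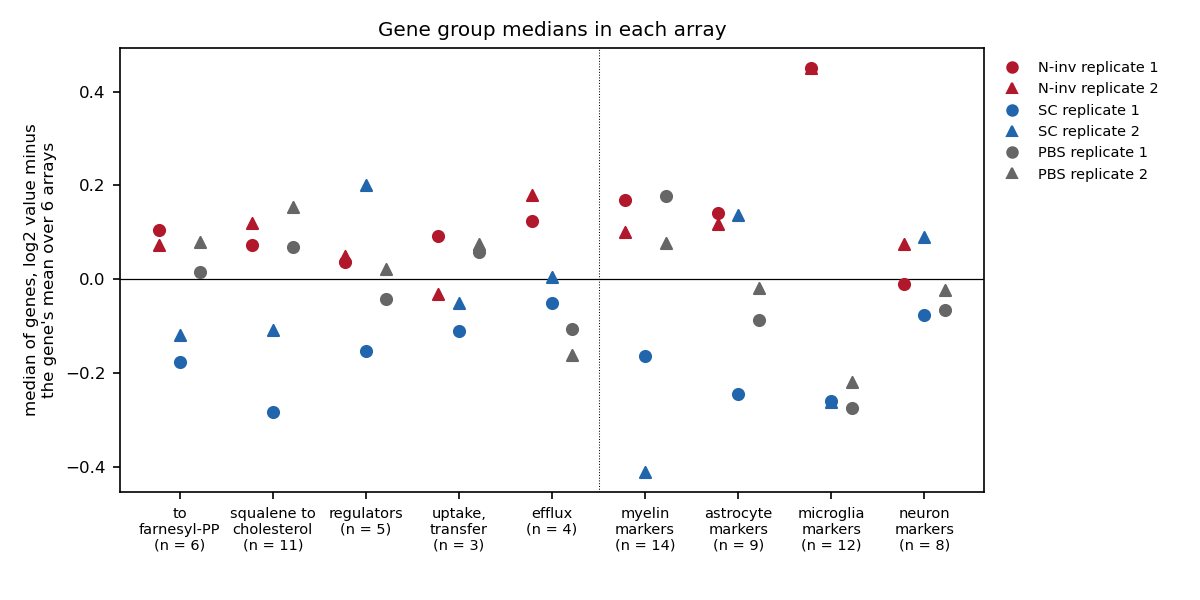
Median over the genes of a group of log2(intensity + pseudocount) minus the gene's mean over 6 arrays, 1 point per array. Both enzyme groups lie lowest in the 2 SC arrays, as do the myelin markers. The efflux genes and the microglia markers are highest in the 2 N-inv arrays. In the efflux genes the SC arrays, at -0.05 and 0.00, lie above the PBS arrays, at -0.11 and -0.16. The regulators split the SC arrays, at -0.15 and 0.20, where all genes tested lie at -0.12 and 0.07. All values are from arrays brought to 1 median.

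Other genes of the same pathways were read from lists of related genes. These lists too were drawn up with earlier results known. Of 5 further genes of synthesis, 2 were higher and 3 lower in SC than in PBS, with a median of -0.08, which was 0.24 without SC replicate 1 and -0.27 without SC replicate 2. Tmem97, a sterol-responsive protein that binds NPC1, was dim and measured 298 and 249.5 in N-inv, 16.4 and 152 in SC and 268 and 236 in PBS. Both SC arrays were the lowest and differed strongly from each other, with a log2 difference of -1.69 ± 0.60 (SE) in SC against PBS (adjusted p = 0.6 in limma). This difference was -0.65 without SC replicate 1 and -2.74 without SC replicate 2. The remaining 4 genes of that list (Acly, Acss2, Ggps1 and Lbr) lay between -0.15 and 0.15 in the same comparison. The signs of Acly, Ggps1 and Lbr depended on which SC array was left out, and that of Acss2 did not. Without SC replicate 1, Acly was at 0.32, Ggps1 at 0.24 and Lbr at 0.57. Without SC replicate 2, Acly was at -0.12, Ggps1 at -0.54 and Lbr at -0.27. Of 10 further regulators, 9 had higher N-inv than SC levels and 7 were lower in SC than in PBS, with medians of 0.11 and -0.07, while 6 and 6 did so after quantile normalization and 7 and 6 as deposited. Without SC replicate 1 both medians turned sign, at -0.02 and 0.11. Leaving out SC replicate 2 instead gave 0.24 and -0.19. The medians over all genes moved the same way when either SC array was left out. Rxrb, a partner of LXR, measured 2705 and 3126 in N-inv, 2039 and 2631 in SC and 2106 and 2219 in PBS, which gave a log2 difference of 0.42 ± 0.19 (SE) in N-inv against PBS. Nfya, a subunit of the CCAAT-binding factor, measured 656 and 802 in N-inv, 684 and 594 in SC and 775 and 925 in PBS, which gave a log2 difference of -0.40 ± 0.19 (SE) in SC against PBS. Of 12 further genes of uptake and transport, 9 were higher in N-inv than in PBS and 9 higher in SC than in PBS, with medians of 0.07 in each, the second being 0.14 without SC replicate 1 and 0.02 without SC replicate 2; as deposited, 7 were higher in N-inv than in PBS. None of these genes passed the adjusted threshold in limma.

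Of 12 further genes of cholesterol efflux and turnover, 6 were higher and 6 lower in SC than in PBS (7 and 5 as deposited, 8 and 4 after quantile normalization), and 8 had no overlap, 4 in each direction, or 33.3% against 13.7% of all genes higher and 19.8% lower. Their median was 0.00, with 0.17 without SC replicate 1 and -0.08 without SC replicate 2. Pltp, which transfers phospholipid between lipoproteins, measured 13253 and 10803 in N-inv, 7636 and 6209 in SC and 12114 and 12293 in PBS. Both SC arrays were far below the rest, with a log2 difference of -0.82 ± 0.19 (SE) in SC against PBS (adjusted p = 0.518 in limma). Ch25h, which makes an oxysterol that acts on LXR and on SREBP processing, measured 413 and 249 in N-inv, 534 and 439 in SC and 86.3 and 231 in PBS. Its SC arrays were the highest, with a log2 difference of 1.59 ± 0.41 (SE) in SC against PBS (adjusted p = 0.52 in limma) and 1.03 ± 0.41 in N-inv against PBS. Apod, another lipid carrier of glia, measured 33356 and 35271 in N-inv, 42108 and 51242 in SC and 27555 and 32356 in PBS. Its SC arrays were also the highest, with a log2 difference of 0.64 ± 0.18 (SE) in SC against PBS (adjusted p = 0.528 in limma). In N-inv against PBS 9 of the 12 were higher, against 60% of all genes, and 8 had no overlap, against 25.2%, with a median of 0.17. Under that adjustment 0 of the 12 passed in any comparison.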

How the data were processed

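Total RNA of L1 cord was extracted with TRIzol and labelled with biotin by a two-cycle reaction from 100 ng, per the labels' protocols. Intensities of probe sets were deposited on a linear scale, with a 2% trimmed mean of 999.7 on each array, so the authors had scaled them per array. How probes were summarised is not stated in the labels. Of 45101 probe sets, 64 controls were left out, and 34945 of the rest had 1 gene symbol, 932 several and 9160 none; those with several or none were tested but not named.

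Arrays were brought to 1 median, 250.65, and the pseudocount of 25.1 was added before taking log2, so differences of dim genes are understated. Probe sets with a mean over the 6 arrays above the 40th percentile (intensity 152) were tested. One limma model (limma 3.58.1, R 4.3.3) over all 6 arrays gave the 3 comparisons, two-sided, with Benjamini-Hochberg adjustment over 27022 probe sets and a threshold of 0.05. Exact permutation of 2 arrays against 2 cannot go below p = 0.333 and was not used. Arrays have no depth; their number limits the precision.

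A gene is given by its brightest probe set. Array values are printed for the 3 genes of smallest p per role, for genes whose probe sets differed in sign by over 0.3 and for Insig1, Srebf1, Srebf2, Abca1 and Apoe, and others by their range. The genes, lists and this rule were chosen with earlier results of these data known, so counts are set beside those of all genes and no list was tested. Alternatives were 2 scalings, pseudocounts of 1 and 100, no filter and the 60th percentile, the mean of a gene's probe sets, only the groups compared, an intensity trend, the replicate number as a block, and leaving out each array. The script was tested on simulated data.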

Additional observations from a re-analysis of the deposited data

How the results depend on the processing

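Of the median differences of synthesis enzymes, regulators and uptake, transfer and efflux genes, those of the enzymes moved by less than the spread between replicates under every alternative except leaving out SC replicate 2: with each array left out in turn they ran from 0.22 to 0.33 in N-inv against SC and from -0.32 to -0.19 in SC against PBS. The regulator median ran from -0.14 to 0.19 in N-inv against SC and from -0.13 to 0.24 in SC against PBS, the ends being the fits without SC replicate 1 or 2. For the uptake, transfer and efflux genes, reported at 0.076 in N-inv against PBS, at 0.20 in N-inv against SC and at -0.14 in SC against PBS, quantile normalization gave 0.044, 0.12 and -0.088 in that order, the values as deposited gave 0.041 in N-inv against PBS and 0.14 in N-inv against SC, and a filter at the 60th percentile gave 0.15 in N-inv against SC. The mean of all probe sets of a gene gave 0.11 in N-inv against SC and 0.045 in SC against PBS, where the sign turned. Leaving out each array gave 0.076 to 0.17, 0.11 to 0.22 and -0.14 to -0.090 in the same order. Probe sets called by limma, 0 in each comparison as reported, were 1 in N-inv against PBS with only the groups compared and 1 with an intensity trend, and 2 in N-inv against SC with the trend. Leaving out each array gave 0 to 1 in N-inv against PBS, 0 to 2 in N-inv against SC and 0 to 10 in SC against PBS, with 10 without SC replicate 1. The cause of these moves was not tested. Counts of enzymes without SC replicate 1 or 2, added after the data were seen, were 14 and 17 of 17 lower in SC than in PBS and 16 and 16 higher in N-inv than in SC. Replicate numbers did not pair the arrays: deviations of same-numbered arrays correlated at -0.03 (N-inv and SC), 0.01 (N-inv and PBS) and 0.04 (SC and PBS). With the replicate block 0 probe sets were called in each comparison, and the enzyme medians were 0.02 in N-inv against PBS, 0.26 in N-inv against SC and -0.25 in SC against PBS. The number of arrays limits the precision.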

Other observations

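Genes of fatty acid synthesis, the branch driven chiefly by the SREBP of Srebf1, were read beside the cholesterol enzymes, and all 9 lay higher in N-inv than in PBS, with a median log2 difference of 0.14 against 0.04 over all named genes, where 60% of all named genes were higher. In 4 of the 9 both N-inv arrays lay above both PBS arrays, against 25.2% of all named genes. After quantile normalization and as deposited 8 of the 9 were higher in N-inv than in PBS, with medians of 0.07 and 0.11. Fads2, the desaturase that starts the synthesis of long polyunsaturated fatty acids, measured 3419.5 and 3597 in N-inv, 2377 and 2163 in SC and 2509 and 2284 in PBS. Both N-inv arrays were above the other 4, which overlapped, with a log2 difference of 0.55 ± 0.16 (SE) in N-inv against PBS and 0.62 ± 0.16 in N-inv against SC (adjusted p = 1 and 0.449 in limma). Of the 3 probe sets of Fads2 above the filter, 2 were higher and 1 was lower in N-inv than in PBS. All 3 were higher in N-inv than in SC. Me1, the malic enzyme that supplies NADPH for lipid synthesis, measured 3524 and 3946 in N-inv, 2848 and 2688 in SC and 3430.0 and 3766 in PBS, so its SC arrays were the lowest, with a log2 difference of -0.37 ± 0.16 (SE) in SC against PBS. Elovl6, an elongase of saturated fatty acids, measured 5519 and 7084 in N-inv, 5590.2 and 4285 in SC and 5569.8 and 6248 in PBS, and all groups overlapped in N-inv against PBS. In SC against PBS 4 of the 9 were higher and 5 lower, with a median of -0.08, which was 0.09 without SC replicate 1 and -0.08 without SC replicate 2.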
